A study of Mus musculus with 30 samples.

Results

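The Na/K-ATPase of adipocytes was examined through 6 genes, the beta subunit genes Atp1b1, Atp1b2 and Atp1b3 and the FXYD genes Fxyd1, Fxyd5 and Fxyd6, which were found by symbol among the 54232 genes of the count table. RNA sequencing was performed on 3T3-L1 cells, a mouse pre-adipocyte line, kept in adipogenic medium in 6 groups of 5 libraries. The groups were Control, pNaKtide (0.7 µM), indoxyl sulfate (IS, 100 µM), IS+pNaKtide, oxidized low density lipoprotein (oxLDL, 50 µg/mL) and oxLDL+pNaKtide, with a treatment of 5 days per the labels, while the study's methods give a shorter one. All 6 groups are this 1 line, and pNaKtide is a cell permeant peptide given in the medium. The labels number the samples but do not say that they came from separate cultures, so p-values measure the spread between these samples, which may be technical.

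The Na/K-ATPase exports sodium and imports potassium at the cost of ATP, and so maintains the gradients that many transporters use. Its alpha subunit carries out the transport, its beta subunit brings the alpha subunit to the cell surface, and small FXYD proteins adjust its affinity and turnover. The alpha subunit also binds the kinase Src, and pNaKtide is derived from the part of the alpha subunit that binds and inhibits Src.

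The library totals lay between 6945498 and 15159877 counts, with a median of 11524210. The first principal component held 71.7% of the variance, and 3 libraries had scores on it of the opposite sign to the others of their group. Control replicate 1 had a score of -22.4, whereas the other Control libraries were at 5.3 to 25.4, and IS replicate 4 had a score of 24.4, whereas the other IS libraries were at -30.9 to -19.1. pNaKtide replicate 3 had a score of -4.6, whereas the other pNaKtide libraries were at 13.2 to 30.9. The GC slope of a library, the rise of its log2 counts over the mean of all libraries per 10 percentage points of GC content of the gene, ran from -0.365 to -0.114 with oxLDL and from 0.06 to 0.571 with oxLDL+pNaKtide. Adipocyte markers (10 genes, Adipoq and Fabp4 among them) summed to 8715 to 12860 CPM (counts scaled to the depth of the library), and pre-adipocyte and fibroblast markers (8 genes) to 4070 to 7925 CPM. The latter sum was 6022 to 7925 CPM in Control and 5328 to 5907 CPM with oxLDL, without overlap, and 5438 to 7884 CPM with oxLDL+pNaKtide. It was 4070 to 6719 CPM with IS, 4366 to 5448 CPM with IS+pNaKtide, below all Control libraries, and 5011 to 7383 CPM with pNaKtide, and its part in the results was not tested. The 5 macrophage markers summed to 4.267 to 8.467 CPM with Ptprc at 0 counts in every library, the 4 endothelial markers to at most 0.6135 CPM, the 6 muscle markers to at most 0.09395 CPM and the 6 neural markers to 0.2456 to 1.729 CPM. The neural sum was 1.129 to 1.729 CPM with oxLDL, above the 0.3952 to 0.955 CPM of Control and the 0.4442 to 1.042 CPM with oxLDL+pNaKtide without overlap, and its part in the results was not tested. In bulk samples, fewer cells of a type and less RNA per cell cannot be told apart.

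Of the 6 genes, 5 had more than 14 counts over the 30 libraries and were tested, while Fxyd6 had 4 counts in 3 libraries and was not. In GRCm38, Atp1b1 (ENSMUSG00000026576) lies on chromosome 1 at 164437109 to 164458355, Atp1b2 (ENSMUSG00000041329) on chromosome 11 at 69599736 to 69605942, and Atp1b3 (ENSMUSG00000032412) on chromosome 9 at 96332655 to 96364442. Fxyd5 (ENSMUSG00000009687) and Fxyd1 (ENSMUSG00000036570) are close to each other on chromosome 7, at 31032722 to 31042481 and 31051678 to 31057199, with Fxyd7 between them. Fxyd6 (ENSMUSG00000066705) lies on chromosome 9 at 45370185 to 45396159, and is the only one of the 6 on the plus strand. Atp1b1 overlaps Nme7 on the opposite strand by 617 bases, and since the strand setting of the counting is not given, reads from that stretch cannot be assigned with certainty.

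The upstream sequences of Atp1b1 and Fxyd1 are shown because these genes moved in opposite directions with oxLDL, before any correction for GC content. Each is the 250 bases before the RefSeq start in GRCm38.p6, read 5′ to 3′ on the minus strand, at chr1:164458356-164458605 for Atp1b1 and chr7:31054854-31055103 for Fxyd1, a start that lies inside the GENCODE gene. Sequence just after this Fxyd1 start was found in no GENCODE transcript of Fxyd1, whereas that after the Atp1b1 start was found in one of Atp1b1. The Fxyd1 window may therefore not be the promoter used. Capitals mark the GC box, searched as GGGCGG on both strands.
Atp1b1: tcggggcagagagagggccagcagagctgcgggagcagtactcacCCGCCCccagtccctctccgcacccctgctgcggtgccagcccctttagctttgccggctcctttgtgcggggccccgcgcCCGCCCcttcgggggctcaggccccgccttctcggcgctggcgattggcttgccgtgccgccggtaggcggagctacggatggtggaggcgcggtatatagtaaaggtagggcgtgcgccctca
Fxyd1: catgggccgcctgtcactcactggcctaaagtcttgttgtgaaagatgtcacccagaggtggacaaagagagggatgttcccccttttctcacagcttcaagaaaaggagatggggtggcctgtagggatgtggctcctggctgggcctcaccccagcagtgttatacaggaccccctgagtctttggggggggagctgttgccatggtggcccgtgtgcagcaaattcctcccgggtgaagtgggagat
The Atp1b1 window held 2 GC boxes and 70.4% GC, and the Fxyd1 window held 0 GC boxes and 57.2% GC. A GC box was present in 32.7% of the 32851 windows of the same length, whose median GC content was 52.4%.

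Among the beta subunits, Atp1b3 was the main transcript of these cells. Per length, the mean level over the 30 libraries was 51.8 FPKM for Atp1b3, 0.704 FPKM for Atp1b1 and 0.0138 FPKM for Atp1b2. Atp1b3 took a mean of 98.19% to 99.0% of the summed beta FPKM in each group, and Atp1b1 took 0.99% to 1.79%. Atp1b2, the beta subunit best known from glia, had 19 counts in all and 0 counts in 16 of 30 libraries, so no fold change is given for it. Among the FXYD genes, Fxyd5 (dysadherin, a regulator that also lowers cell adhesion) had a mean of 3.23 FPKM and Fxyd1 (phospholemman, the regulator of heart and skeletal muscle) 2.48 FPKM. Fxyd5 took a mean of 52.65% to 58.33% of the summed FPKM of the 3 FXYD genes in each group and Fxyd1 41.67% to 47.14%. Fxyd6, best known from brain and inner ear, was above 0 in Control replicate 1 (1 count) and in IS+pNaKtide replicates 3 and 4 (1 and 2 counts).

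**Figure D1:**
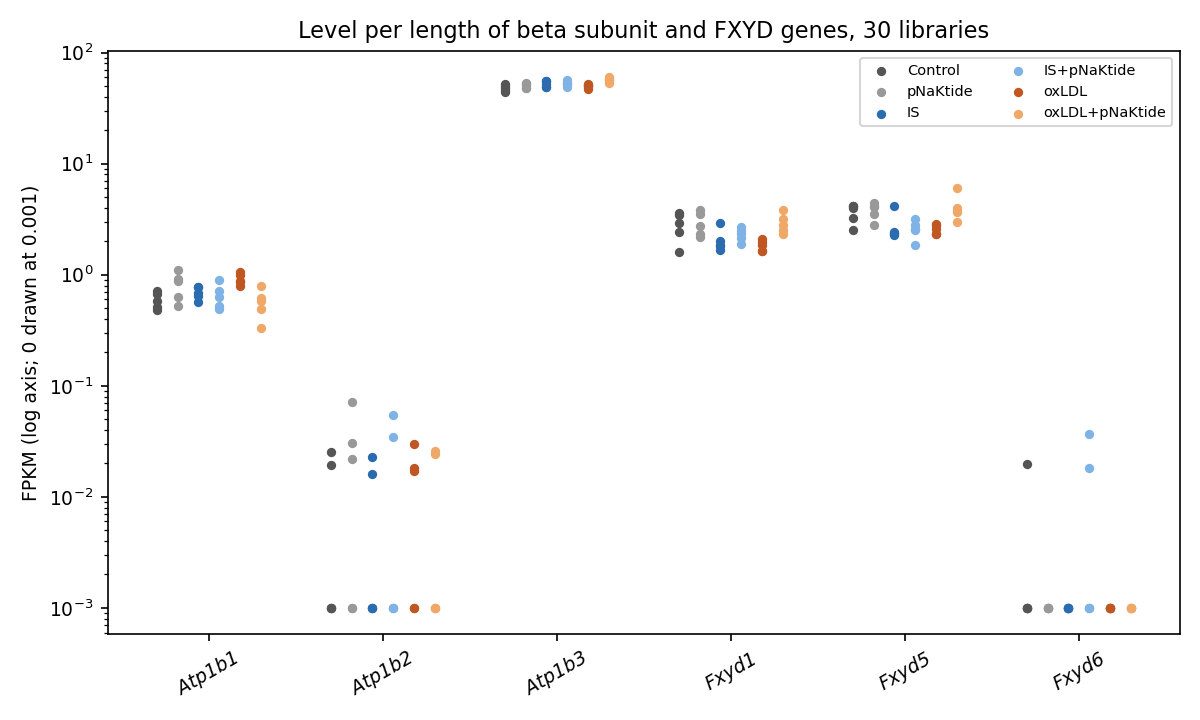
Level per length of the 6 beta subunit and FXYD genes in FPKM on a log axis, with 1 point per library coloured by group and values of 0 drawn at 0.001. Atp1b3 lies at 44.39 to 59.98 FPKM in all 30 libraries, and Atp1b1 at 0.334 to 1.104 FPKM.

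Atp1b1 was higher with oxLDL than in Control, and lower with oxLDL+pNaKtide than with oxLDL. The Control libraries had 2.215, 1.502, 1.815, 1.583 and 2.081 CPM of Atp1b1, and the oxLDL libraries 3.105, 3.268, 2.47, 2.74 and 2.74 CPM. All 5 oxLDL libraries lay above the highest Control library. The means were 1.839 ± 0.308 CPM in Control and 2.865 ± 0.319 CPM with oxLDL (SD, n = 5). By edgeR's quasi-likelihood test the log2 fold change was 0.65 (SE 0.19), with an adjusted p of 0.0168. With oxLDL+pNaKtide the libraries had 1.506, 2.427, 1.954, 0.9933 and 1.812 CPM, all below the lowest oxLDL library. Their mean was 1.739 ± 0.533 CPM (SD, n = 5), and the log2 fold change against oxLDL was -0.69 (SE 0.20, edgeR adjusted p = 0.00639). These values rest on 6 to 48 counts of Atp1b1 per library in the 3 groups.

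pNaKtide alone gave 1.581, 3.352, 1.992, 2.745 and 2.824 CPM of Atp1b1, a range that takes in that of oxLDL and overlaps with that of Control. The log2 fold change against Control was 0.43 (SE 0.21, edgeR adjusted p = 0.810). The change of Atp1b1 with pNaKtide under oxLDL differed from that without oxLDL by -1.11 on the log2 scale (SE 0.29, edgeR adjusted p = 0.0242). The IS libraries had 2.438, 2.156, 2.416, 1.785 and 2.011 CPM, and the IS+pNaKtide libraries 1.554, 1.626, 1.987, 2.837 and 2.24 CPM. These overlapped each other and Control, with log2 fold changes of 0.24 for IS against Control (edgeR adjusted p = 0.458) and -0.08 for IS+pNaKtide against IS (edgeR adjusted p = 1).

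Fxyd5 moved the other way. The Control libraries had 10.58, 16.75, 13.94, 17.73 and 17.78 CPM of Fxyd5, and the oxLDL libraries 11.01, 9.939, 11.86, 12.33 and 9.819 CPM. The groups overlapped only through Control replicate 1. The log2 fold change was -0.48 (SE 0.17, edgeR adjusted p = 0.0371), and the call was lost without Control replicate 4 (adjusted p = 0.103) or Control replicate 5 (adjusted p = 0.101). With oxLDL+pNaKtide the libraries had 16.68, 12.35, 15.81, 24.67 and 15.71 CPM, all above the highest oxLDL library. Against oxLDL the log2 fold change was 0.62 (SE 0.18, edgeR adjusted p = 0.00461).

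Fxyd1 had 3.528, 7.587, 6.494, 8.019 and 5.391 CPM in Control and 3.67, 4.084, 4.323, 3.707 and 4.643 CPM with oxLDL. Control replicate 1 lay below all oxLDL libraries, and the other 4 Control libraries lay above them. The log2 fold change was -0.60 (SE 0.19, edgeR adjusted p = 0.0195). With oxLDL+pNaKtide the libraries had 6.023, 5.487, 5.153, 8.112 and 6.947 CPM, all above oxLDL, and the log2 fold change was 0.62 (SE 0.19, edgeR adjusted p = 0.00874). Both calls of Fxyd1 were lost when each library was corrected for the GC content and length of genes. The log2 fold change was then -0.12 with oxLDL against Control (edgeR adjusted p = 0.589) and -0.06 with oxLDL+pNaKtide against oxLDL (edgeR adjusted p = 0.782). Fxyd1 has the highest GC content of the 6 genes, 58.1%, and the shortest length, 668 bases. With the same correction Fxyd5 kept log2 fold changes of -0.38 (edgeR adjusted p = 0.0951) and 0.55 (edgeR adjusted p = 0.00645), and Atp1b1 of 0.68 (edgeR adjusted p = 0.0255) and -0.67 (edgeR adjusted p = 0.0108).

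**Figure D2:**
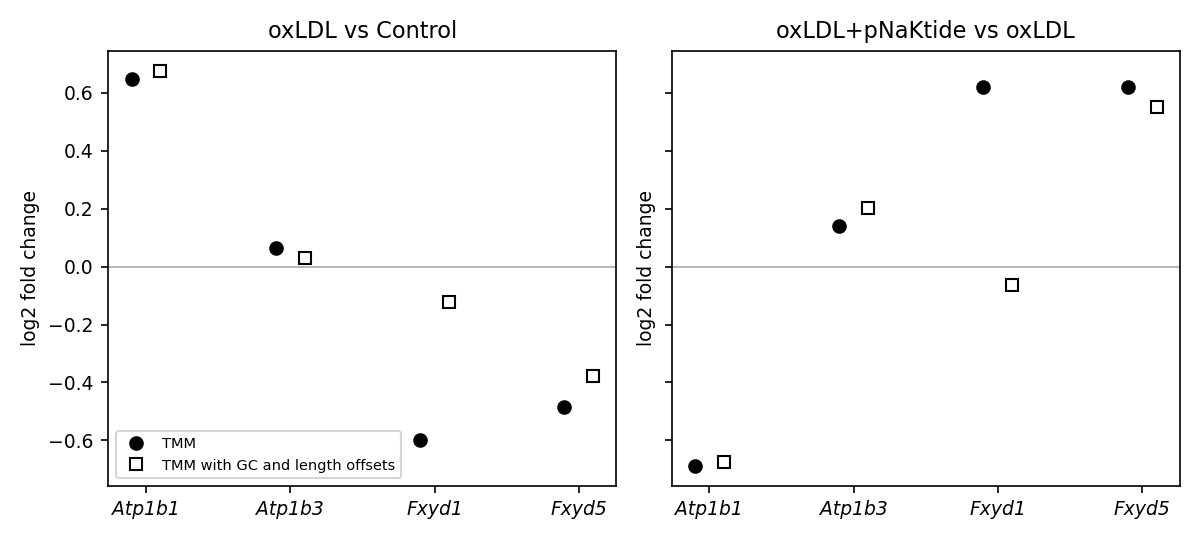
Log2 fold changes of 4 genes in 2 comparisons, with TMM scaling (filled circles) and with added offsets for GC content and length (open squares). Fxyd1 goes from -0.60 to -0.12 and from 0.62 to -0.06, and the squares of Atp1b1 and Fxyd5 stay on the same side of 0 as their circles.

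**Figure D3:**
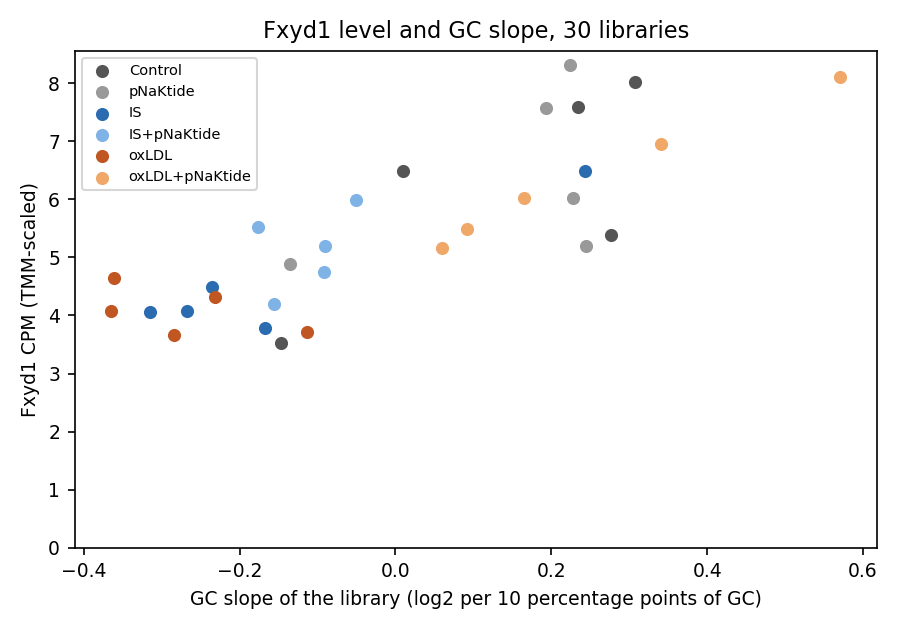
Fxyd1 in CPM against the GC slope of the library, with 1 point per library coloured by group. The oxLDL libraries lie at slopes of -0.365 to -0.114 with 3.67 to 4.643 CPM, and the oxLDL+pNaKtide libraries at 0.06 to 0.571 with 5.153 to 8.112 CPM.

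Atp1b3 varied least. Its libraries had 126.5, 114.8, 122.4, 112.1 and 107.7 CPM in Control, 122.8, 124.4, 121.3, 115.5 and 126.1 CPM with oxLDL, and 133.5, 135.9, 146.1, 122.8 and 133.2 CPM with oxLDL+pNaKtide. The oxLDL libraries lay within the range of Control, and those with oxLDL+pNaKtide overlapped with oxLDL. Against Control, oxLDL gave a log2 fold change of 0.06 with a 95% interval of -0.07 to 0.20, and 0.19 with scaling by library size alone (edgeR adjusted p = 0.0774). Against oxLDL, oxLDL+pNaKtide gave 0.14 (SE 0.07, edgeR adjusted p = 0.0997), just under the threshold of 0.1. When each of the 10 libraries was omitted in turn, the call was made once, without oxLDL+pNaKtide replicate 4 (edgeR adjusted p = 0.0499), and the other adjusted p-values reached 0.224. With scaling by library size alone the value was -0.08 (edgeR adjusted p = 0.432). Against Control, oxLDL+pNaKtide gave 0.20 with a 95% interval of 0.07 to 0.34 (edgeR adjusted p = 0.1, not called). That change was called in 7 of 11 other settings.

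**Figure D4:**
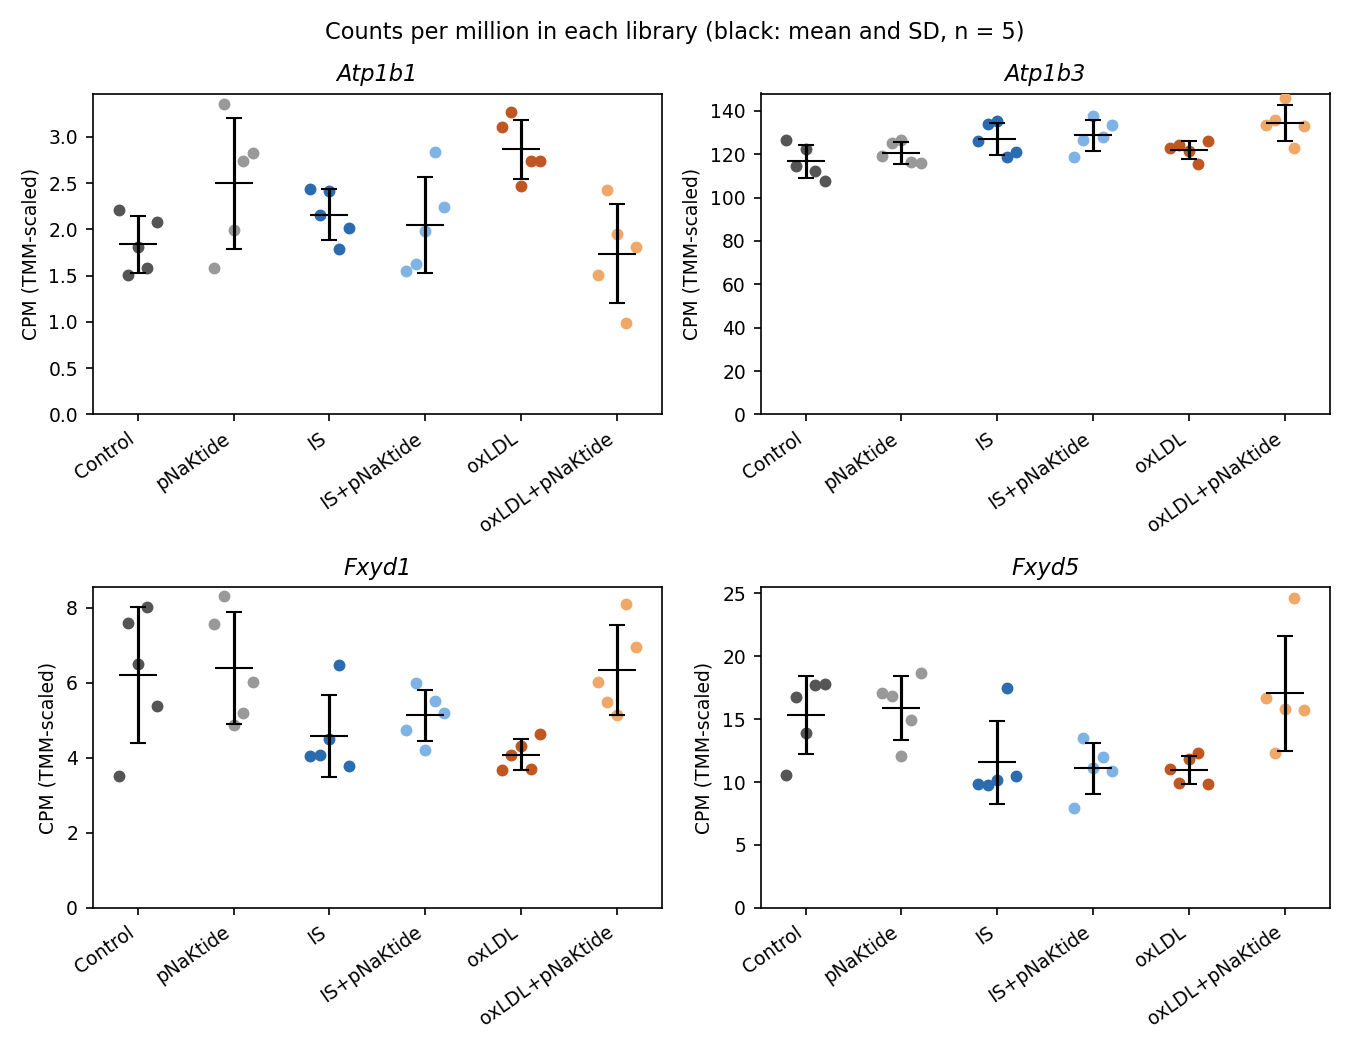
CPM of 4 genes in each library by group, with the mean and SD in black (n = 5). The oxLDL libraries of Atp1b1 lie above all Control and all oxLDL+pNaKtide libraries, and those of Fxyd1 and Fxyd5 lie below all oxLDL+pNaKtide libraries.

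Counted over the comparisons, 3 of the 5 tested genes were called with oxLDL against Control at an adjusted p below 0.1, where 36% of the 20139 tested genes were (18.1% higher and 18% lower). 4 of 5 were called with oxLDL+pNaKtide against oxLDL, where 48.3% of all tested genes were (22.1% higher and 26.1% lower). The called genes were Atp1b1 higher and Fxyd1 and Fxyd5 lower in the former, and the reverse of these with Atp1b3 higher in the latter. Groups did not overlap for 1 of 5 in the first comparison (8.35% of all genes) and for 3 of 5 in the second (28.4%). Both comparisons share the oxLDL libraries, so that opposite directions in them are not independent. For oxLDL+pNaKtide against Control, edgeR called 0 of 5, where 5.20% of all genes were called. At an unadjusted p under 0.05 it was 1 of 5 (Atp1b3), beside 3468 of the 20139 tested genes. DESeq2 called 1 of 5 and limma 1 of the 4 it tested, Atp1b3 in both. They called 7.02% and 12% of all genes there. In the interaction of oxLDL and pNaKtide edgeR called 1 of 5, Atp1b1, where 24.6% of all genes were called, while DESeq2 called 2 of 5 and limma 2 of the 4 it tested, Atp1b1 and Fxyd5 in both, where they called 25.8% and 43.1% of all genes. In edgeR's fit it was 0.57 for Fxyd5 (adjusted p = 0.103) and 0.58 for Fxyd1 (adjusted p = 0.124).

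With IS against Control, edgeR called 0 of the 5 tested genes, where 7.94% of all genes were called. At an unadjusted p under 0.05 it was 2 of 5, beside 5036 of the 20139 tested genes. The IS libraries had 9.876, 9.761, 10.2, 17.47 and 10.48 CPM of Fxyd5 and 4.063, 4.072, 4.496, 6.482 and 3.779 CPM of Fxyd1, and in both genes replicate 4 was the highest. The log2 fold changes were -0.42 for Fxyd5 (edgeR adjusted p = 0.134) and -0.45 for Fxyd1 (edgeR adjusted p = 0.131). Without both Control replicate 1 and IS replicate 4 they were -0.71 (edgeR adjusted p = 0.000401) and -0.74 (edgeR adjusted p = 0.000504), and Atp1b3 was called at 0.18 (edgeR adjusted p = 0.0484). The share of all tested genes called was then 45.4%. In Fxyd5 and Fxyd1, Control replicate 1 was the lowest Control library and IS replicate 4 the highest IS library. Leaving these libraries out therefore had to widen the difference, and the smaller p-values are no independent support. Leaving out 1 of them gave 2 calls, Fxyd5 and Fxyd1, where 33.2% of all genes were called without Control replicate 1 and 34.5% without IS replicate 4. For IS+pNaKtide against Control, edgeR called 0 of 5, where 0.358% of all genes were called. Without Control replicate 1 it called 3 of 5, where 26.7% of all genes were called. In the fit of all libraries 2 of 5 had an unadjusted p under 0.05, beside 4022 of the 20139 tested genes. With the GC and length correction and all libraries, the change of Fxyd1 with IS against Control was -0.13 (edgeR adjusted p = 0.606) and that of Fxyd5 -0.36 (edgeR adjusted p = 0.173).

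pNaKtide did not move a tested gene past the threshold in the presence of IS or alone. For IS+pNaKtide against IS, edgeR called 0 of 5, where 0% of all genes were called. At an unadjusted p under 0.05 it was 0 of 5, beside 564 of the 20139 tested genes. For Fxyd5 this log2 fold change was -0.05 with a 95% interval of -0.40 to 0.30, and for Fxyd1 it was 0.18 with an interval of -0.19 to 0.55. For pNaKtide against Control, edgeR called 0 of 5, where 0.00497% of all genes were called. At an unadjusted p under 0.05 it was 1 of 5 (Atp1b1), beside 1233 of the 20139 tested genes. The change of Fxyd5 with pNaKtide was larger under oxLDL than under IS by 0.67 on the log2 scale (SE 0.25, edgeR adjusted p = 0.0512), where 29.3% of all genes were called. With scaling by library size alone Fxyd5 was not called (0.46, edgeR adjusted p = 0.115), and Atp1b1 was (-0.79, edgeR adjusted p = 0.0524). The call of Fxyd5 was also lost without IS replicate 4 (0.48, edgeR adjusted p = 0.147), oxLDL+pNaKtide replicate 4 (0.53, edgeR adjusted p = 0.124) or IS+pNaKtide replicate 1 (0.57, edgeR adjusted p = 0.101). Between oxLDL and IS edgeR called 0 of 5, where 0.0149% of all genes were called. At an unadjusted p under 0.05 it was 1 of 5 (Atp1b1), beside 1047 of the 20139 tested genes. The groups did not overlap for 1 of 5, Atp1b1, beside 1.49% of all genes. The interaction of IS and pNaKtide was called by edgeR for 0 of 5, where 0% of all genes were called. At an unadjusted p under 0.05 it was 0 of 5, beside 619 of the 20139 tested genes. DESeq2 and limma also called 0 of the tested members for these comparisons of pNaKtide with IS, with Control and in the IS interaction, for oxLDL against IS, and for IS and IS+pNaKtide against Control.

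**Figure D5:**
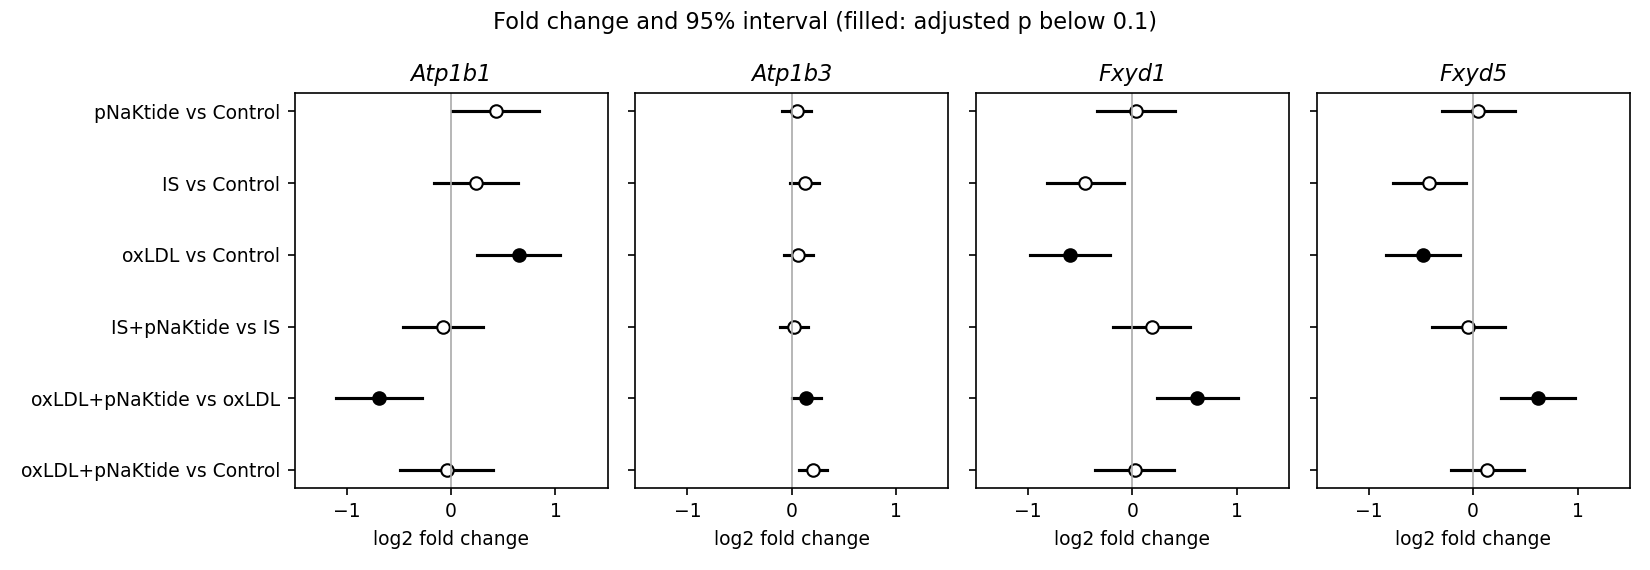
Log2 fold changes of 4 genes with their 95% intervals in 6 comparisons, filled where the adjusted p was below 0.1. Filled points appear in the rows for oxLDL against Control and oxLDL+pNaKtide against oxLDL only.

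In the order of group means, Atp1b1 ran from oxLDL (2.865 CPM) through pNaKtide, IS, IS+pNaKtide and Control to oxLDL+pNaKtide (1.739 CPM). Fxyd5 ran from oxLDL+pNaKtide (17.04 CPM) through pNaKtide, Control, IS and IS+pNaKtide to oxLDL (10.99 CPM), and Fxyd1 had its lowest mean with oxLDL (4.085 CPM). Atp1b3 ran from 134.3 CPM with oxLDL+pNaKtide to 116.7 CPM in Control. In these 4 genes, neighbours in the order overlapped in their ranges. The SD of log2 CPM within groups was 0.078 for Atp1b3 and 0.291 to 0.306 for Fxyd5, Fxyd1 and Atp1b1.

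The genes whose profiles over the 30 libraries lay closest, by the root mean square difference of centred log2 CPM, included Lins1 (0.25) and Rbmx2 (0.26) for Atp1b1, among 12579 genes with a median of 0.43. For Fxyd5 they were Tmsb10, Srm and Fam221b (0.15 each, median 0.42), and for Fxyd1 Cndp2 (0.15), Ap1s1 (0.15) and Gm48338 (0.16, median 0.41). For Atp1b3 they were Smim14, Kcmf1 and Hnrnpab (0.07 each, median 0.27). These libraries share the groups and the GC slopes above. The profile of Atp1b2 was too low to be read in this way.

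Of 29 partners of the pump in signaling (Src family kinases, Ras and MAP kinases, phospholipase C, inositol trisphosphate receptors and ankyrins), 8 rose and 6 fell with oxLDL against Control, and 6 rose and 13 fell with oxLDL+pNaKtide against oxLDL, where 36% and 48.3% of all genes were called. The median log2 fold change in the latter was -0.17, beside -0.09 over all genes. With the GC and length correction the counts were 5 up and 9 down in the former and 11 up and 6 down in the latter, whose median was then 0.08, beside -0.04 over all genes. Of all genes 20.4% were then called in the former (1795 up and 2319 down) and 36.8% in the latter (3810 up and 3610 down). Yes1, a kinase of the Src family, had 18.03 to 28.66 CPM with oxLDL (median 23.01) and 5.132 to 10.76 CPM with oxLDL+pNaKtide (median 7.992), without overlap. It fell by 1.53 on the log2 scale (edgeR adjusted p = 3.434e-05), and by 0.87 with the GC and length correction. Hras, a small GTPase, had 44.83 to 61.24 CPM with oxLDL and 85.46 to 132.9 CPM with oxLDL+pNaKtide, and rose by 0.94 (edgeR adjusted p = 3.974e-05), and by 0.72 with the correction.

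Of 24 genes that use the sodium gradient or handle cations, 8 rose and 4 fell with oxLDL against Control, and 4 rose and 13 fell with oxLDL+pNaKtide against oxLDL, where 36% and 48.3% of all genes were called, with a median of -0.33 in the latter beside -0.09 over all genes. With the GC and length correction the counts were 3 up and 5 down in the former and 6 up and 7 down in the latter, where 20.4% and 36.8% of all genes were then called, and the median in the latter was -0.01, beside -0.04 over all genes. Slc8a1, the sodium-calcium exchanger, had 3.829 to 6.447 CPM with oxLDL and 1.421 to 3.011 CPM with oxLDL+pNaKtide, and fell by 1.18 (edgeR adjusted p = 2.802e-05), a call that was lost with the correction (-0.32, edgeR adjusted p = 0.351). Slc1a5, a sodium-dependent neutral amino acid transporter, had 654.5 to 768.9 CPM with oxLDL and 963 to 1258 CPM with oxLDL+pNaKtide, and rose by 0.61 (edgeR adjusted p = 3.809e-05), and by 0.34 with the correction.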

How the data were processed

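The authors trimmed reads with Trimmomatic 0.38, aligned them to GRCm38 with HISAT2 2.1.0 and counted reads per gene with GenomicAlignments, and the deposited counts are not normalized. The deposited FPKM values are scaled for gene length and sequencing depth. Which annotation, strand setting and gene lengths were used is not stated by the labels or methods. The authors' table of normalized counts was not used. The labels' extraction text speaks of adipose tissue, while the samples are labelled as 3T3 cells.

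Groups came from the labels. Genes with more than 14 counts over 30 libraries (20139 of 54232) were fitted for 6 groups in 1 model with edgeR 4.0.16 (TMM, robust quasi-likelihood test, R 4.3.3), and p-values were adjusted over all tested genes by the BH method within each of 11 comparisons, with a threshold of 0.1. CPM are TMM-scaled, and log2 CPM used a prior count of 2. FPKM served for levels between genes and for shares. Symbols, lengths and GC content came from GENCODE M21 (54079 genes matched), and upstream sequences from RefSeq (5 of 6 genes). Alternatives were DESeq2 1.42.0, limma 3.58.1 on log2(FPKM + 1), other scalings and filters, offsets for GC content and length (mgcv 1.9.3), a replicate block, and leaving out libraries. No pair of the 60 within groups was a duplicate (lowest chi-square per degree of freedom 1.3).

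The members and lists were chosen with earlier results of these data known. Genes were named as the 6 members, for each list the highest ranked gene by adjusted p, upward and downward, with oxLDL+pNaKtide against oxLDL, and the 3 genes closest in profile to a member. Some genes that this rule names, and the list of the other pump genes, are not reported here.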

Additional observations from a re-analysis of the deposited data

Results flagged for a closer look

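The change of Atp1b1 with pNaKtide differed between cells with and without oxLDL, by -1.11 on the log2 scale, and that of Fxyd5 differed between oxLDL and IS by 0.67, both past the threshold of edgeR's test of the difference. The latter was not called with scaling by library size alone (0.46, edgeR adjusted p = 0.115).

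Single libraries far from the others of their group were found 7 times in 44 groups of 5 by Dixon's ratio (critical value 0.71). For independent groups of continuous values chance gives about 1 in 20. These groups share libraries, and those of Atp1b2 and Fxyd6 hold counts near 0, so an excess over chance was not tested. IS replicate 4 stood apart 4 times, for Fxyd5 (17.47 CPM, others 9.761 to 10.48), Fxyd1 (6.482 CPM, others 3.779 to 4.496), the first principal component (24.4, others -30.9 to -19.1) and the GC slope (0.243, others -0.315 to -0.167). IS+pNaKtide replicate 2 stood apart for the first principal component (-1.3, others -15.8 to -13). pNaKtide replicate 3 stood apart for the GC slope (-0.135, others 0.193 to 0.245). The remaining case, Fxyd6 in Control replicate 1 at 1 count, says nothing about that library, since any single count among values of 0 passes this ratio.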

How the results depend on the processing

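The calls of Atp1b1 with oxLDL against Control, with oxLDL+pNaKtide against oxLDL and in the interaction of oxLDL and pNaKtide were made in all 10 other settings that could test it and in every fit that left out a library. Its size varied over these 10 settings, which include limma on log2(FPKM + 1). The log2 values ran from 0.2691 to 0.7742, from -0.9092 to -0.2958 and from -1.2992 to -0.4768, in the same order. The calls of Fxyd5 in the first 2 comparisons were made in all 11 settings, and those of Fxyd1 in 10 of 11, the exception being the GC and length offsets. Atp1b3 was called for oxLDL against Control with library size alone (0.19), and its call for oxLDL+pNaKtide against oxLDL was lost in 4 of 11 settings: library size alone, at least 1 count, an adjusted p below 0.05 and only the groups compared. The number of members called for oxLDL against Control was therefore 4 with library size alone (35.9% of all genes called), and it was 2 with the offsets (20.4%) and with more than 14 counts in every library (58%), which leaves Atp1b1 untested. For oxLDL+pNaKtide against oxLDL it was 3 in those 4 settings (30.3% to 51.5% of all genes called), with the offsets (36.8%) and with more than 14 counts in every library (71.8%). The number of members called for oxLDL+pNaKtide against Control was 1 in place of 0 with DESeq2 (7.02% of all genes called), its size factors (5.17%), more than 14 counts in every library (14.4%), the replicate block (8.21%), limma (12%), the offsets (9.72%), and without both Control 1 and IS 4 (6.39%), beside 5.20%. For the interaction of oxLDL and pNaKtide it was 2 in place of 1 with DESeq2 (25.8% of all genes called), more than 14 counts in every library (46.4%), only the groups compared (21.7%), the replicate block (29.8%) and limma (43.1%), and 3 without both libraries (40%), beside 24.6%. For IS against Control it was 1 with library size alone (12.6%) and with more than 14 counts in every library (21%), 2 with the replicate block (17%) and 3 without both libraries (45.4%), beside 7.94%. For IS+pNaKtide against Control it was 1 with the replicate block (6.64%) and 3 without both libraries (32.4%), beside 0.358%. For the change with pNaKtide under oxLDL minus under IS it was 0 at an adjusted p below 0.05 (20.1%) and 2 with limma (48.1%), beside 29.3%, and with library size alone the 1 call was Atp1b1 in place of Fxyd5. Leaving out 1 library gave 0 to 2 for IS against Control (2 without Control replicate 1 or IS replicate 4), 0 to 3 for IS+pNaKtide against Control (3 without Control replicate 1), 0 to 1 for oxLDL+pNaKtide against Control (1 without Control replicate 1 or oxLDL+pNaKtide replicate 4), 1 to 3 for the interaction and 0 to 2 for the last difference. In these fits the share of all genes called ran from 0.0745% to 34.5%, 0.00993% to 26.7%, 2.51% to 6.46%, 10.5% to 37.3% and 18.8% to 32.7%, in the same order. The causes were not tested.

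Signs turned in the following cases. With library size alone, Atp1b3 was at -0.0157 for IS+pNaKtide against IS, -0.0831 for oxLDL+pNaKtide against oxLDL, -0.0957 for the oxLDL interaction and -0.0674 for oxLDL minus IS, and Fxyd1 at -0.0688 for oxLDL+pNaKtide against Control. This scaling took the median change over all genes on the log2 scale from 0.045 to 0.172 for oxLDL against Control and from -0.086 to -0.302 for oxLDL+pNaKtide against oxLDL, with 4963 genes up and 2276 down in place of 3637 and 3622, and 2696 up and 7680 down in place of 4458 and 5264. With the offsets, Fxyd1 was at -0.0550 for pNaKtide against Control, -0.0625 for oxLDL+pNaKtide against oxLDL, -0.1849 for oxLDL+pNaKtide against Control, 0.0086 for oxLDL against IS, -0.0074 for the oxLDL interaction and -0.1928 for oxLDL minus IS, and Atp1b1 at 0.0042 for oxLDL+pNaKtide against Control. The offsets left 4114 genes called for oxLDL against Control, in place of 7259, and 2402 for the oxLDL interaction, in place of 4951. Without both libraries, Fxyd1 was at -0.1183 and Fxyd5 at -0.0645 for pNaKtide against Control, Atp1b3 at -0.0033 and Fxyd5 at 0.1361 for IS+pNaKtide against IS, Atp1b1 at 0.0443 and Fxyd1 at -0.1371 for oxLDL+pNaKtide against Control, and Fxyd5 at 0.1191 for oxLDL against IS and 0.2006 for the IS interaction. Leaving out 1 library gave ranges over 0 for pNaKtide against Control (Fxyd1 -0.1163 to 0.1416, Fxyd5 -0.0632 to 0.1454), oxLDL+pNaKtide against Control (Atp1b1 -0.1683 to 0.0811, Fxyd1 -0.1346 to 0.1236, Fxyd5 -0.0032 to 0.2474), IS+pNaKtide against IS (Atp1b1 -0.2227 to 0.0046, Atp1b3 -0.0047 to 0.0484, Fxyd5 -0.1269 to 0.1362), oxLDL against IS (Fxyd5 -0.1177 to 0.1198) and the IS interaction (Fxyd5 -0.1959 to 0.0889, Atp1b3 -0.0593 to 0.0002).

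The labels do not say that samples with the same replicate number are paired. Of 75 correlations of their deviations from the group means, 37 were above 0.1, with a range of -0.661 to 0.79. For replicate 4 they were 0.582 to 0.79 among Control, IS, oxLDL and oxLDL+pNaKtide. In the replicate 4 pairs with pNaKtide or IS+pNaKtide they were -0.329 to -0.013. What samples of the same number share was not tested. The replicate block called 3423 genes for IS against Control, in place of 1599. Counts limit Atp1b2 and Fxyd6, for which differences were not detectable at this depth.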
